A study of Homo sapiens with 6 samples.

Results

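The genes described here encode 10 proteins of intermediate filaments and of the nuclear lamina, taken by symbol from the 23368 gene symbols of a read count table. They are NES, SYNM, DES and VIM of the neural, muscle and mesenchymal filaments, KRT8, KRT18 and KRT19 of the simple epithelial keratins, and LMNA, LMNB1 and LMNB2 of the lamins. RNA was sequenced from HCT116 cells, an established human colon cancer line, treated with an siRNA against ADNP (siADNP, 3 libraries) or with a control siRNA (siControl, 3 libraries). ADNP is a nuclear protein with zinc fingers and a homeodomain that binds chromatin remodellers. Both groups were the same line and both received an siRNA, while the sources used here give neither the dose, the time of harvest nor whether replicates came from separate transfections, so each p-value reflects library-to-library spread that may be partly technical. The question was which of these transcripts differ when ADNP is depleted, and whether the filaments typical of neural and mesenchymal cells differ in step with the keratins and lamins.

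Intermediate filaments are rope-like polymers of coiled-coil proteins whose makeup depends on the cell type. Simple epithelia such as the colon lining build them from obligate pairs of a type II keratin (KRT8) and a type I keratin (KRT18 or KRT19), whereas vimentin and desmin, of type III, polymerize on their own in mesenchymal and muscle cells. Nestin and synemin, of type IV, are large proteins that join filaments made by vimentin or desmin. Lamins form the meshwork under the inner nuclear membrane, with A-type lamins from LMNA and B-type lamins from LMNB1 and LMNB2.

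Reads assigned to genes numbered 7396771 to 8726017 in the siADNP libraries and 8282290 to 10265175 in the siControl libraries. ADNP itself stood at 53.9 ± 6.62 CPM in siADNP libraries and 164 ± 8.24 CPM in siControl libraries (SD, n = 3 each; CPM is the count relative to the TMM-scaled library size), so the target was lower in each siADNP library. Epithelial identity was checked on EPCAM, an epithelial surface protein, which averaged 328 CPM with siADNP and 335 CPM with siControl. The colon markers VIL1 and CDX1 had 0 reads in all libraries and LGALS4 had 1 read in the siADNP group and 4 in the siControl group. The colon label therefore rests on the named cell line. Of the colon list, only EPCAM, CDH1 and CDX2 had enough reads to be tested. In a bulk sample, fewer cells that express a gene and less RNA per cell cannot be told apart.

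With siADNP, 4 of the 10 transcripts were higher, 2 were lower and 4 did not pass the test, a gene being called at an adjusted p under 0.05 in edgeR's quasi-likelihood test with Benjamini-Hochberg adjustment over the 12489 genes tested. All 10 had enough reads to be tested. Among all measured genes, 28.3% of tested genes were called, 14.6% higher and 13.7% lower. Nestin, desmin and synemin mRNA rose about 1.87-fold to 3.55-fold from low levels. The abundant keratins KRT8 and KRT18 stayed within 0.13 log2 units of control by their 95% intervals, and the lamins moved in opposite directions, LMNB2 up and LMNA down. The per-library levels of the 10 transcripts span from 1.09 CPM for DES to 1339 CPM for KRT8.

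**Figure D1:**
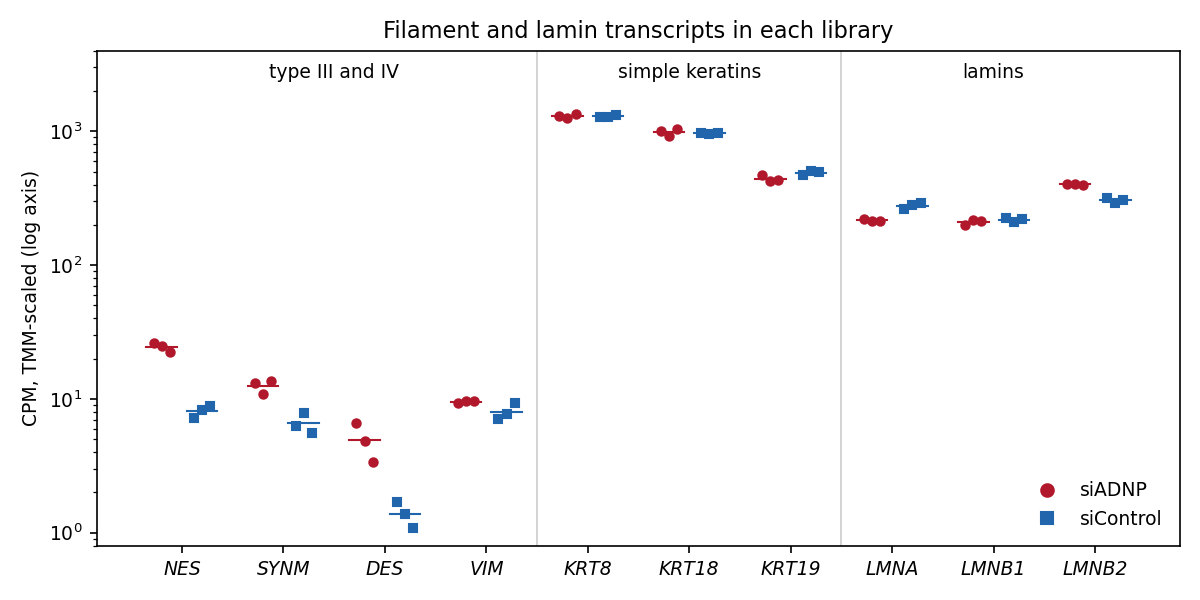
Level of each of the 10 transcripts in each library, in TMM-scaled CPM on a log axis, with siADNP as red circles, siControl as blue squares and group means as bars. NES, SYNM and DES lie higher in the 3 siADNP libraries, KRT8, KRT18 and LMNB1 overlap between the groups, and LMNA and LMNB2 separate in opposite directions.

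The stretches of DNA around the starts of 4 of these genes are shown to set the 3 rising genes with a start in the table beside VIM, which did not pass the test. Each runs from 250 bases before to 50 bases after a RefSeq transcript start (build GRCh38.p14), is written 5′ to 3′ on the gene's strand, and has in capitals the GC box GGGCGG, the motif of Sp-family factors, read on both strands. The sequences belong to NES at chr1:156677358-156677657 on the minus strand, SYNM at chr15:99104830-99105129 on the plus strand, LMNB2 at chr19:2456910-2457209 on the minus strand and VIM at chr10:17227991-17228290 on the plus strand.
NES: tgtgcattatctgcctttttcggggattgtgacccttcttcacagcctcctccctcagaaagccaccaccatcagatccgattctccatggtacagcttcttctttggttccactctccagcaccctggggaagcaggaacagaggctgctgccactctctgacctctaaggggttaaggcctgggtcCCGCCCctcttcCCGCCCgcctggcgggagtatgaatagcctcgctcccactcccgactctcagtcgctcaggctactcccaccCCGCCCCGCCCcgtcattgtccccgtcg
SYNM: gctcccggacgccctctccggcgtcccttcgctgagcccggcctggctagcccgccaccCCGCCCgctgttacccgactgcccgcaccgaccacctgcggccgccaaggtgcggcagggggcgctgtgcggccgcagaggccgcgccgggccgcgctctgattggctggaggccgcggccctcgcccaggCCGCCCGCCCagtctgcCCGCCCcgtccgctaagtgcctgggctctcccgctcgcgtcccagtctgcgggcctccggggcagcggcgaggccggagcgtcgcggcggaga
LMNB2: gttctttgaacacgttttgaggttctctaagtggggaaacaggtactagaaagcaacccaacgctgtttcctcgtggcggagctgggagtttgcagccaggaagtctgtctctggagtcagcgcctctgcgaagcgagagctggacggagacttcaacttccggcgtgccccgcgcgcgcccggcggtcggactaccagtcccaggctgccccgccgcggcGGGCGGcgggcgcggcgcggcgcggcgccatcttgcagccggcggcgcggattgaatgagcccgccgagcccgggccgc
VIM: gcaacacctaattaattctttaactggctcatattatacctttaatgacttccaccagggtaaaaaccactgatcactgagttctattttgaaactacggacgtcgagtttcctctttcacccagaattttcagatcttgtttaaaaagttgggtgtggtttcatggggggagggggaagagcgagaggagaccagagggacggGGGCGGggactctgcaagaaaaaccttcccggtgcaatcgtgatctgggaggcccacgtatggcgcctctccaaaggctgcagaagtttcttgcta

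The NES and SYNM windows held 4 GC boxes each, and the LMNB2 and VIM windows held 1 each, where 45% of 35114 windows of this length in the RefSeq table hold at least 1. GC content was 60.3% for NES, 79% for SYNM, 67.7% for LMNB2 and 48% for VIM, against a median of 58.7% over all windows. The ratio of observed to expected CpG was 0.557 for NES, 0.929 for SYNM, 1.11 for LMNB2 and 0.584 for VIM, against a median of 0.579. No window of these 4 held TATAAA, which 11.5% of all windows hold, and CCAAT on either strand was found in SYNM and not in NES, LMNB2 or VIM (34.6% of all windows). The CpG ratio of the rising genes ranged from near the median (NES) to above 97.8% of windows (LMNB2). The counts are per gene and do not say which start was used. LMNA, which fell, is listed with 3 starts, whose windows held 1, 1 and 2 GC boxes. LMNB1, which did not pass, is listed with 2 starts, whose windows held 0 and 4, and the KRT8 window held 0. The number of GC boxes thus did not separate the rising genes from the others. Of the 10 genes, 7 had a window in the table, and DES, KRT18 and KRT19 had none.

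NES encodes nestin, the filament protein of neural progenitors and of some developing muscle and endothelium. It reached 26.3, 24.7 and 22.4 CPM in siADNP libraries, against 7.18, 8.26 and 8.92 CPM in the siControl libraries. The groups were far apart relative to the spread within them. NES rose 3.02-fold, and edgeR gave it log2 fold change 1.59 ± 0.12 (SE) at adjusted p = 1.27e-12. The raw counts behind these levels were 205, 218 and 165 reads with siADNP and 64, 84 and 74 reads with siControl. Nestin mRNA averaged 24.5 CPM with siADNP and 8.12 CPM with siControl, and its mean over the 6 libraries exceeded that of 34.5% of tested genes.

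SYNM encodes synemin, a large filament protein of muscle and astrocytes that binds desmin and vimentin. It stood at 13.1, 10.9 and 13.6 CPM in siADNP libraries, against 6.28, 7.87 and 5.55 CPM in siControl libraries. The groups did not overlap, although siADNP replicate 2 and siControl replicate 2 came closest to each other. The rise was 1.87-fold (edgeR log2 fold change 0.91 ± 0.15, adjusted p = 2.35e-05).

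DES encodes desmin, the main filament of muscle cells. It was the least abundant of the 10 in CPM, with 51, 43 and 25 reads in siADNP libraries and 15, 14 and 9 reads in siControl libraries. These counts correspond to 6.55, 4.87 and 3.39 CPM with siADNP and 1.68, 1.38 and 1.09 CPM with siControl, and the siADNP libraries were widely spread yet did not overlap with siControl. DES rose 3.55-fold, and edgeR gave it log2 fold change 1.83 ± 0.28 at adjusted p = 5.48e-06. Its 95% interval reached up to 2.40 and enclosed that of NES (1.34 to 1.84), so which of the 2 genes rose more was not resolved.

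VIM encodes vimentin, the filament of mesenchymal cells and the usual partner of nestin. It stood at 9.38, 9.63 and 9.63 CPM in siADNP libraries, against 7.06, 7.77 and 9.28 CPM in siControl libraries. Each siADNP library lay above each siControl library, as happened for 40.8% of tested genes in one direction or the other, but siControl replicate 3 was nearly as high as the siADNP libraries. The log2 fold change of 0.25 ± 0.15 did not pass (adjusted p = 0.220, edgeR), and the 95% interval from -0.05 to 0.56 allows a rise of that size or none. Vimentin was a low transcript in both groups, and its interval lay entirely below those of NES, DES and SYNM. In GENCODE, VIM-AS1 overlaps VIM on the opposite strand and antisense genes with clone names overlap DES and SYNM; none of them is a row of the count table, and the sources used here do not give the strand setting of the counting.

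KRT8 and KRT18 form the keratin pair of simple epithelium and were the most abundant of the 10. KRT8 stood at 1305, 1263 and 1339 CPM in siADNP libraries, against 1289, 1277 and 1325 CPM in siControl libraries. KRT18 stood at 998, 921 and 1044 CPM with siADNP, against 978, 949 and 976 CPM with siControl. The groups overlapped for both genes. The log2 fold changes were 0.01 for KRT8 (95% interval -0.09 to 0.10; adjusted p = 0.943, edgeR) and 0.03 for KRT18 (-0.07 to 0.13; adjusted p = 0.690, edgeR), and their sign turned negative with a GC offset. The ratio of KRT18 to KRT8 reads, which needs no scaling between libraries, was 0.764, 0.730 and 0.780 with siADNP and 0.759, 0.743 and 0.737 with siControl. GENCODE lists 50 pseudogene copies of KRT8 and 68 of KRT18, so reads that align to several copies may be missing from both counts and the absolute levels are uncertain. KRT8 and KRT18 also overlap each other on opposite strands in GENCODE, and both are rows of the count table. Depending on the strand setting, which is not given, reads in the shared stretch may have been set aside as ambiguous.

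KRT19, the smallest keratin and an alternative partner of KRT8, stood at 470, 428 and 434 CPM in siADNP libraries, against 472, 507 and 495 CPM in siControl libraries. The groups nearly touched at siADNP replicate 1 and siControl replicate 1. KRT19 fell to 90.3% of control, at edgeR log2 fold change -0.15 ± 0.05 (adjusted p = 0.0203). The call rested on single libraries: the adjusted p was 0.0726 without siADNP replicate 2, 0.0858 without siADNP replicate 3, 0.123 without siControl replicate 2 and 0.0656 without siControl replicate 3, and 0.0604 with upper-quartile scaling. Over the other alternatives it ranged down to 8.19e-05. The ratio of KRT19 to KRT8 reads was 0.360, 0.339 and 0.325 with siADNP and 0.366, 0.397 and 0.374 with siControl.

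LMNA encodes lamins A and C, which stiffen the nucleus and are abundant in differentiated and mechanically loaded cells. It stood at 220, 213 and 215 CPM in siADNP libraries, against 264, 282 and 289 CPM in siControl libraries. The groups were separated by more than the range within either. LMNA fell to 77.5% of control, at edgeR log2 fold change -0.37 ± 0.05 (adjusted p = 4.42e-07).

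LMNB2 encodes lamin B2, a permanently farnesylated lamin that stays at the membrane. It stood at 406, 401 and 399 CPM in siADNP libraries, against 317, 291 and 308 CPM in siControl libraries. The groups did not overlap, and the rise was 1.32-fold (edgeR log2 fold change 0.40 ± 0.05, adjusted p = 3.68e-08). LMNB2 overlaps TIMM13 on the same strand in GENCODE, so reads in the shared stretch may have been set aside as ambiguous. LMNB1, which encodes lamin B1 of the same type, stood at 201, 219 and 214 CPM with siADNP, against 225, 211 and 221 CPM with siControl. The groups overlapped, and the log2 fold change of -0.05 (95% interval -0.15 to 0.05) did not pass (adjusted p = 0.471, edgeR).

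**Figure D2:**
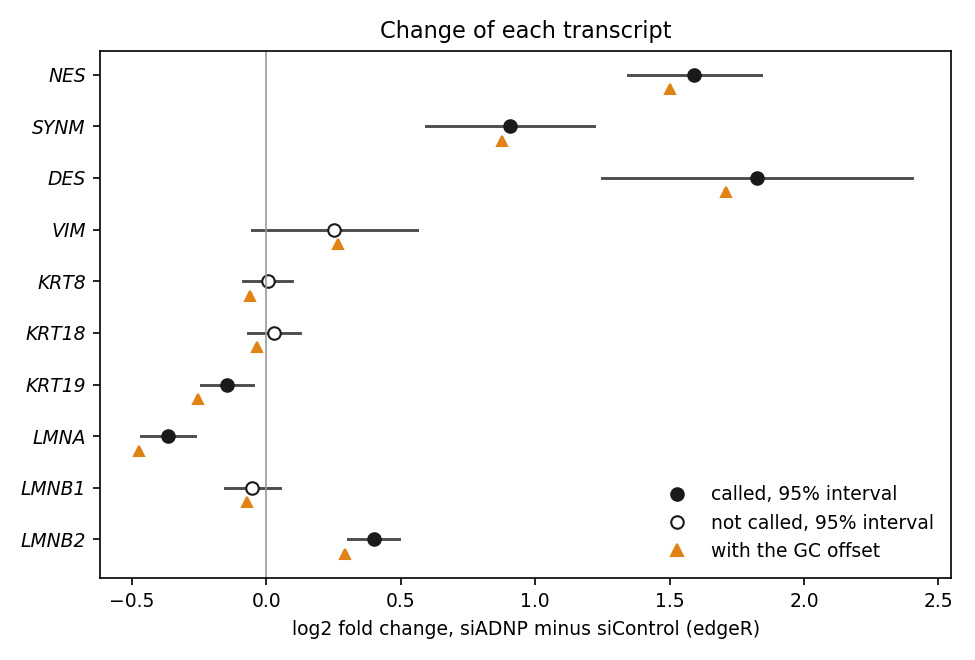
Log2 fold change, siADNP minus siControl, of each transcript with its 95% interval in edgeR, filled where the gene was called, and orange triangles for the value with a GC offset. NES and DES lie furthest to the right at 1.59 and 1.83, KRT8, KRT18 and LMNB1 sit at zero within their intervals, and LMNA at -0.37 and LMNB2 at 0.40 lie on opposite sides.

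Counting the LMNB2 reads per LMNA read within each library gave 1.85, 1.89 and 1.85 with siADNP, against 1.20, 1.03 and 1.06 with siControl. The ratio averaged 1.86 ± 0.0200 with siADNP and 1.10 ± 0.0904 with siControl (SD, n = 3 each), and it does not depend on how the libraries were scaled. Per kilobase of the longest coding transcript, LMNA and LMNB2 changed places between the groups, which was not so in CPM, where LMNB2 was highest in both. The place of LMNB1 rests on the length used, 2878 bases, where its longest transcript has 3475. With siADNP, LMNB2 was highest at 86.1 ± 0.718 CPM per kb, LMNB1 followed at 73.4 ± 3.27 and LMNA was lowest at 67.7 ± 1.06. With siControl, LMNA was highest at 87.3 ± 4.15 CPM per kb, LMNB1 again stood between at 76.1 ± 2.45 and LMNB2 was lowest at 65.3 ± 2.80 (SD, n = 3). At the lengths used, the 3 lamins did not overlap with each other within either group.

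Summed over the 3 lamins, reads per kb from LMNA made up 29.8 ± 0.682% with siADNP and 38.2 ± 1.76% with siControl. LMNB2 made up 37.9 ± 0.555% with siADNP and 28.6 ± 0.983% with siControl (SD, n = 3 each). LMNB1 made up 32.3 ± 1.22% with siADNP and 33.3 ± 0.780% with siControl, with overlapping groups. The total share of lamins in the reads per kb of the 10 genes was 13.6 ± 0.547% with siADNP and 13.5 ± 0.146% with siControl, with overlapping groups.

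**Figure D3:**
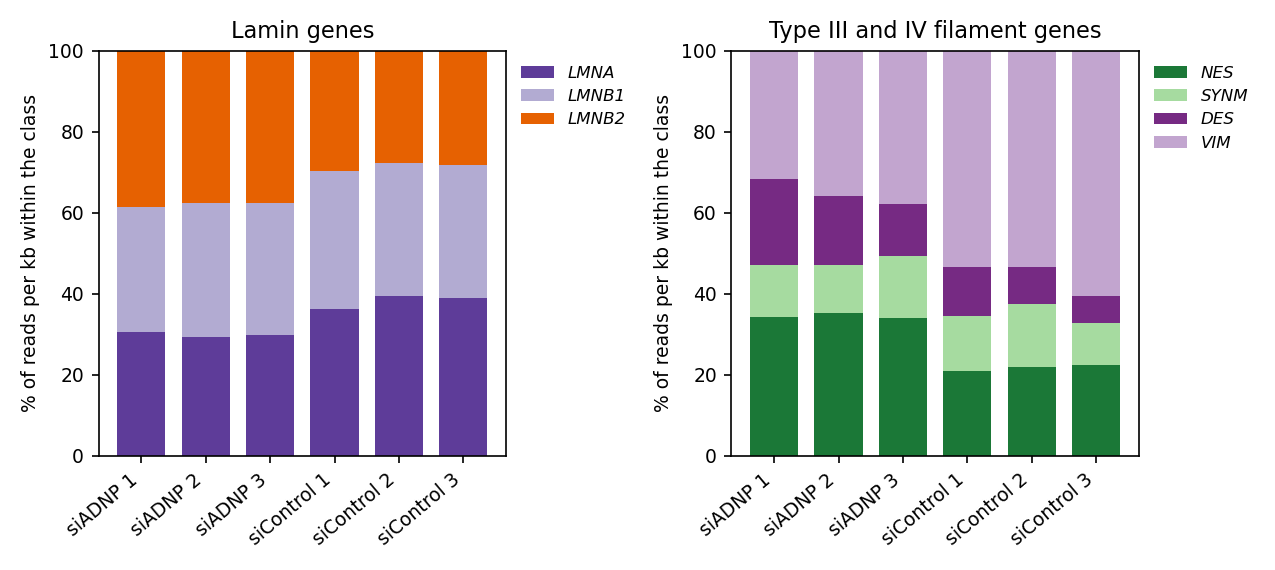
Makeup of the lamin transcripts (left) and of the type III and IV filament transcripts (right) in each library, as percent of reads per kb of transcript within the class, with the siADNP libraries left of the siControl libraries. LMNA takes 29.2% to 30.5% of lamin reads per kb with siADNP and 36.2% to 39.5% with siControl, and VIM takes 31.8% to 38.0% of the filament class with siADNP and 53.4% to 60.5% with siControl.

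Among the type III and IV filaments, VIM took 35.2 ± 3.14% of reads per kb with siADNP, against 55.8 ± 4.08% with siControl, while NES took 34.5 ± 0.719% with siADNP and 21.7 ± 0.767% with siControl. DES took 17.0 ± 4.20% with siADNP and 9.27 ± 2.69% with siControl (SD, n = 3 each). SYNM took 13.3 ± 1.93% with siADNP and 13.3 ± 2.63% with siControl. Per kb, NES in siADNP cells (4.02 to 4.74 CPM per kb) overlapped with VIM (4.39 to 4.51), whereas in siControl cells NES (1.29 to 1.61) lay below VIM (3.31 to 4.35). This ranking and the shares rest on the transcript lengths used. VIM was divided by 2135 bases, where its longest transcript has 2666 and would give lower VIM values. At the lower end, DES and SYNM did not differ beyond their spread with siADNP, at 2.20 ± 0.703 and 1.69 ± 0.194 CPM per kb. With siControl they stood at 0.614 ± 0.133 and 0.888 ± 0.161 CPM per kb.

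Set against the keratins, this class remained small. It held 0.762 ± 0.0626% of the reads per kb of the 10 genes with siADNP and 0.398 ± 0.0259% with siControl, and the groups did not overlap. The 3 keratins held 85.7 ± 0.568% with siADNP and 86.1 ± 0.142% with siControl, with overlapping groups, a difference of -0.411 percentage points that was -0.0846 without siADNP replicate 2. As a share of reads, with no division by length, they held 75.9%, 74.7% and 76.2% with siADNP, against 76.8%, 77.1% and 76.8% with siControl, and these groups did not overlap. Per 1000 KRT8 reads there were 20.2, 19.6 and 16.7 NES reads with siADNP, against 5.57, 6.47 and 6.74 with siControl. Since the 10 genes were chosen with earlier results of these data known, these shares are descriptions and carry no test.

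GC content of transcripts moved with the calls across the table: the median was 54.0% for genes called higher, 43.0% for genes called lower and 48.6% for the rest. Among the called filament and lamin genes, GC content was 59.3% for NES, 62.9% for DES, 52.4% for SYNM, 61.4% for LMNB2, 61.5% for LMNA and 61.8% for KRT19. With a smooth offset for GC in each library, the log2 fold changes were 1.502 for NES, 1.71 for DES, 0.88 for SYNM, 0.29 for LMNB2, -0.47 for LMNA and -0.25 for KRT19, and each of these 6 genes was still called.

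Few other filament genes were measurable. Of 8 further type III, type IV and lens filament genes, 2 were tested, and neither passed. PRPH, which encodes peripherin of peripheral neurons, averaged 3.71 CPM with siADNP and 3.91 CPM with siControl, and BFSP1 of the lens averaged 9.56 CPM with siADNP and 8.88 CPM with siControl. The astrocyte filament gene GFAP had 6 reads with siADNP and 0 with siControl, and the neurofilament genes NEFL, NEFM and NEFH had 3, 1 and 1 reads with siADNP and 0, 1 and 0 with siControl, too few to test. Of 52 other keratin genes, 4 were tested and none was called, while 21 had 0 reads in all 6 libraries. KRT10, KRT15, KRT23 and KRT222 had log2 fold changes of -0.07, 0.21, 0.01 and -0.24. KRT20, a marker of differentiated colon cells, had 26 reads with siADNP and 20 with siControl.

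The proteins that tie filaments to junctions and to other cytoskeletal systems moved both ways. Of 14 listed linkers, 13 were tested, and 4 rose, 2 fell and 7 did not pass, with a median log2 fold change of 0.10, against -0.00128 for all tested genes. Over the whole table, 14.6% of tested genes rose and 13.7% fell. DSP, which encodes desmoplakin, the anchor of keratins at desmosomes, rose to 602 ± 42.7 CPM with siADNP, against 425 ± 18.6 CPM with siControl (log2 fold change 0.50 ± 0.05, adjusted p = 9.12e-10, edgeR). PLEC, which encodes plectin, a linker of filaments to hemidesmosomes and the nuclear envelope, fell to 970 ± 48.3 CPM with siADNP, against 1171 ± 15.8 CPM with siControl (log2 fold change -0.27, adjusted p = 2.52e-05, edgeR). The linker genes thus included a rise and a fall among their abundant members. MACF1, a linker of actin and microtubules, fell with -0.23 and did not pass without siADNP replicate 3 (adjusted p = 0.0779) or in DESeq2's Wald test (0.130). EVPL, which encodes envoplakin, rose with 0.27 and did not pass with the GC offset (0.14, adjusted p = 0.0665). The other rises, DST and EPPK1, were named after their values were seen. Both had overlapping groups. Both calls were lost in DESeq2's Wald test, in limma on the deposited log2 values and with the replicate number as a block. They were also lost without siADNP replicate 1 or 2 and without siControl replicate 1 or 2. With the GC offset EPPK1 did not pass (0.03, adjusted p = 0.770, edgeR), while DST was still called (0.23, adjusted p = 0.00633, edgeR).

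Of 17 listed genes of the inner nuclear membrane and of the LINC complex, which couples the lamina to the cytoskeleton, 15 were tested, and 1 rose, 2 fell and 12 did not pass (median log2 fold change 0.00375). Among all tested genes, 28.3% were called in either direction. SUN2, an inner membrane protein that binds lamin A, fell to 42.0 ± 2.22 CPM with siADNP, against 50.2 ± 3.06 CPM with siControl (log2 fold change -0.26, adjusted p = 0.00717, edgeR), and narrowly missed without siControl replicate 1 (0.0551). NARF, which encodes a protein that binds prenylated prelamin A, fell with -0.20 and EMD, which encodes emerin, rose with 0.21. Neither of these 2 calls held without siADNP replicate 1 (adjusted p = 0.277 for NARF and 0.107 for EMD) or in DESeq2's Wald test. NARF also lost its call without siADNP replicate 3, without each siControl replicate, with upper-quartile scaling and with scaling to library totals only. EMD also lost its call without siADNP replicate 2, without siControl replicate 1 or 3 and with no filter. With the GC offset EMD did not pass either (0.11, adjusted p = 0.315, edgeR). SYNE2, which encodes nesprin-2, had -0.19 and did not pass (adjusted p = 0.0534).

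Of 5 enzymes that process lamin tails, 2 rose, none fell and 3 did not pass, with a median log2 fold change of 0.21. For all tested genes the median was -0.00128, and 28.3% were called. ICMT, which methylates the farnesylated cysteine, stood at 126, 130 and 131 CPM in siADNP libraries, against 108, 104 and 110 CPM in siControl libraries (log2 fold change 0.26 ± 0.05, adjusted p = 0.000248, edgeR). ZMPSTE24, the protease that cuts prelamin A to mature lamin A, stood at 130, 140 and 137 CPM with siADNP, against 120, 118 and 116 CPM with siControl (log2 fold change 0.21 ± 0.05, adjusted p = 0.00300, edgeR). Both were higher in each siADNP library while LMNA was lower. FNTB and FNTA, the subunits of farnesyltransferase, had 0.22 and -0.09 and did not pass.

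Of 4 small heat shock proteins and co-chaperones that associate with filaments, 3 were tested and 2 rose, where 14.6% of all tested genes rose. HSPB8 rose 1.63-fold, to 5.44 ± 0.661 CPM with siADNP, against 3.31 ± 0.262 CPM with siControl (adjusted p = 0.0104, edgeR), and did not pass without siADNP replicate 1 (0.0604) or in DESeq2's Wald test (0.0810). HSPB1 rose (log2 fold change 0.26), but missed the threshold under a GC offset (0.14, adjusted p = 0.0568). BAG3, a co-chaperone, had 0.03 and did not pass. CRYAB, the chaperone of desmin, had 0 reads in all libraries.

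**Figure D4:**
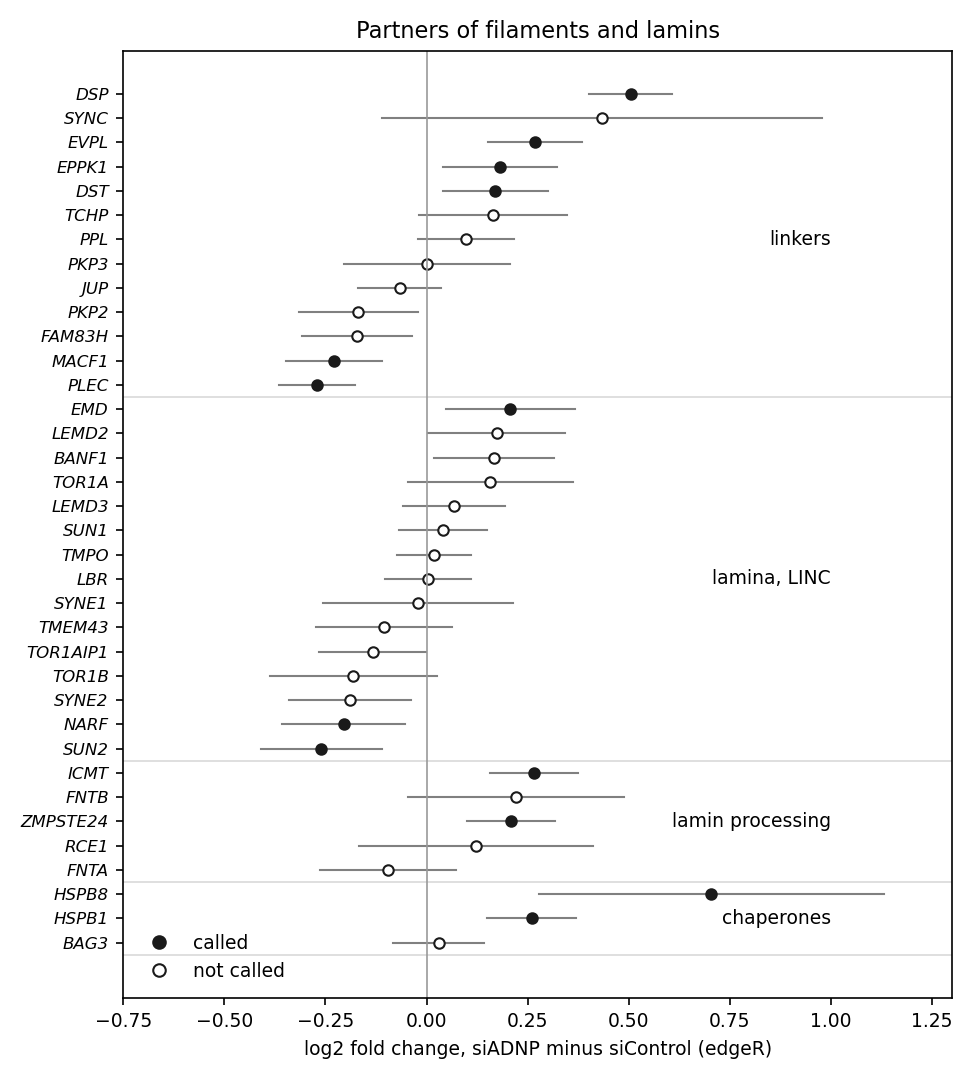
Log2 fold change, siADNP minus siControl, with 95% intervals for the tested genes of the linkers, of the lamina and LINC complex, of lamin processing and of filament chaperones, filled where the gene was called. DSP at 0.50 and PLEC at -0.27 bound the abundant linkers, and ICMT and ZMPSTE24 lie right of zero.

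Markers of other cell types that use nestin, desmin or vimentin were near zero in most cases. Of the neural progenitor markers, SOX1, HES5, FABP7 and POU3F2 had 0 reads in all libraries and SOX2 had 6 reads with siADNP and 7 with siControl. MSI1, an RNA-binding protein also found in intestinal stem cells, rose (edgeR log2 fold change 0.37, adjusted p = 0.00275) and made up most of the list's summed level, which was 31.5 to 33.5 CPM with siADNP and 24.8 to 29.1 CPM with siControl. PAX6, a transcription factor of neural progenitors, had 108 reads with siADNP and 135 with siControl and did not pass (log2 fold change -0.13). Of 11 muscle markers, MYOG, MYF5 and CKM had 0 reads and MYOD1 had 0 with siADNP and 2 with siControl. The 3 tested members had a median log2 fold change of -0.13. TNNT1, a troponin of slow muscle, rose with 0.35 (adjusted p = 0.000163, edgeR), while MYH3, an embryonic myosin, and TTN, the giant sarcomere protein titin, had -0.29 and -0.13 and did not pass. The list summed to 124 to 144 CPM with siADNP and 116 to 127 CPM with siControl.

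Of 9 fibroblast markers, DCN, LUM and PDGFRA had 0 reads, the tested COL1A1 and FBN1 did not pass (log2 fold changes of 0.14 and 0.00408) and the sums overlapped, at 11.7 to 13.8 CPM with siADNP and 10.6 to 13.7 CPM with siControl. Of 6 transcription factors of mesenchymal transition, ZEB1 and SNAI1 were tested and did not pass (log2 fold changes of 0.29 and 0.11), and the sums were 19.7 to 23.2 CPM with siADNP and 17.0 to 20.0 CPM with siControl. Endothelial markers summed to 0.407 to 0.680 CPM with siADNP and 0.393 to 1.01 CPM with siControl. Of 6 blood cell markers, CD68 was tested and rose with 0.42 (adjusted p = 0.0366, edgeR), a call lost when any single siADNP replicate, siControl replicate 2 or siControl replicate 3 was left out, and with the GC offset, while PTPRC, the pan-leukocyte marker, had 7 reads with siADNP and 6 with siControl. Of the 7 colon epithelium markers, EPCAM, CDH1 and CDX2 were tested and did not pass (log2 fold changes of -0.03, 0.16 and 0.20), and the list summed to 391 to 413 CPM with siADNP and 395 to 416 CPM with siControl.

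The genes whose profiles over the 6 libraries lay nearest to each filament gene were found by the root-mean-square difference of log2 levels centred on each gene's mean, among 10531 genes with at least 5 CPM. For NES they included CNTNAP1, a contactin-associated protein of axons, and CHPF, a chondroitin polymerizing factor, at 0.0821 and 0.172 log2 units. CNTNAP1 stood at 10.7, 11.3 and 8.81 CPM with siADNP and 3.14, 3.34 and 3.98 CPM with siControl. For DES they were PALM3, MRC2 and CNTNAP1, at 0.228, 0.312 and 0.371, a looser match. For SYNM they were C6orf223, the glycine transporter gene SLC6A9 and the interleukin 10 receptor gene IL10RB, at 0.0817, 0.0875 and 0.111. For VIM they were SLC44A3, ZNF365 and CD47, at 0.0414, 0.0438 and 0.0476, genes with similarly small differences between the groups. Of these, the more abundant CD47 was called higher (log2 fold change 0.27, adjusted p = 0.0171, edgeR), while SLC44A3 and ZNF365 did not pass. CNTNAP1 was thus listed for both NES and DES, closely for NES (0.0821) and loosely for DES (0.371). The distance includes the difference between the groups, so genes that rose by similar amounts can lie near each other.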

How the data were processed

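RNA was purified with Trizol, treated with DNase and made into libraries from total RNA with a Nugen kit, per the labels' protocols. The authors deposited counts of reads per gene symbol, and STAR, HTSeq and DESeq2 were used with hg19, per the submitters' processing notes. The sources used here give no annotation or strand setting. The deposited log2 values are variance-stabilized and entered 1 alternative. Lines naming no gene were left out. Reads in genes made up 26.4% to 27.2% with siADNP and 27.7% to 28.3% with siControl, no-feature reads 54.4% to 55.7% with siADNP and 53.5% to 54.3% with siControl, and ambiguous reads 0.455% to 0.479% with siADNP and 0.486% to 0.500% with siControl; none of these shares overlapped between the groups, and their part in the results was not tested. Reads without a unique alignment made up 17.4% to 17.9% with siADNP and 17.5% to 17.7% with siControl.

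Genes were tested with edgeR 4.0.16 (R 4.3.3; TMM, filterByExpr with minimum count 10, quasi-likelihood, two-sided, Benjamini-Hochberg), with limma 3.58.1 and DESeq2 1.42.0 as alternatives, after a test on simulated data. SE was taken as the absolute log2 fold change over the root of F. Lengths and GC came from GENCODE transcripts (96.7% of tested genes). Between libraries, chi-square per degree of freedom was 1.77 to 2.94 within groups and 6.37 to 8.18 between them, so replicates differed beyond counting error and no library was a repeat. Named list genes are up to 4 tested genes per list with the smallest p and called changes of at least 1.5-fold; other list genes were named after their values were seen. The members and lists were chosen with earlier results of these data known. Figures used matplotlib 3.10.9. Some genes that were measured are not reported here, and counts and sums include them.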

Additional observations from a re-analysis of the deposited data

How the results depend on the processing

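The 10 genes were refitted under 17 alternatives, and the calls of NES, DES, SYNM, LMNB2 and LMNA held in each, as did the lack of a call for VIM, LMNB1, KRT8 and KRT18. On the deposited variance-stabilized log2 values the differences were 0.67 for NES, 0.36 for DES and 0.32 for SYNM, against 1.59, 1.83 and 0.91 in edgeR. For the more abundant LMNB2 and LMNA they were 0.36 and -0.33, against 0.40 and -0.37. The stabilized values are on another scale than edgeR's fold changes, so these sizes are not directly comparable. KRT19 lost its call with upper-quartile scaling (-0.12), leaving 1 member called lower, and its log2 fold change ranged from -0.19 to -0.12 when single libraries were left out, with 1 to 2 members called lower. The sign of the uncalled KRT8 value turned with no filter (-0.00242), under a GC offset (-0.0612) and under GC offset plus replicate block (-0.0612), and ranged from -0.00977 to 0.0271 when single libraries were left out. The uncalled KRT18 value turned under a GC offset (-0.0336, and -0.0347 when blocked as well) and ranged from -0.00731 to 0.0765 when single libraries were left out. DESeq2's Wald test called 2161 genes, 1096 higher and 1065 lower, against 3538 in edgeR, with the same 6 members. Without division by length, the type III and IV share differed by 0.751 and the keratin share by -1.31 percentage points, against 0.364 and -0.411 per kb.

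Samples with the same replicate number did not deviate together over all tested genes (correlations of -0.046 to 0.028). The pair of siADNP replicate 2 and siControl replicate 3 gave 0.068. A weak shared batch might not be seen this way, so pairing was not excluded. With the replicate block, 3236 genes and 6 members were called. Depth limits DES most, with 9 to 51 reads per library.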
